A study of Mus musculus with 2 samples.

Results

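The nuclear genes of oxidative phosphorylation (OXPHOS) were taken as the genes whose symbol starts with Nduf, Uqcr, Sdh, Atp5, Cox4, Cox5, Cox6, Cox7 or Cox8, leaving out pseudogene symbols, with 20 or more unique molecular identifiers (UMIs, which count single RNA molecules) summed over both matrices. The tables list 32589 gene IDs, of which 98 had such a name and 94 passed. The 4 below the minimum were Cox8b with 19 UMIs, Cox7b2 with 10, and Cox6a2 and Cox8c, both listed at 0. Cox7a1, with 48 UMIs, was just inside it. By the complex they belong to, 44 genes were assigned to complex I, 8 to complex II, 8 to complex III, 16 to complex IV (with Ndufa4 and Ndufa4l2, which carry complex I names) and 18 to complex V, assembly factors included. They had 318279 UMIs in all. The symbol Atp5o was shared by a pair of gene IDs, ENSMUSG00000022956 with 4126 UMIs and ENSMUSG00000116933 with 127, which overlap on the minus strand of chromosome 16, so their counts are uncertain.

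Oxidative phosphorylation takes place in the inner membrane of mitochondria. Complexes I and II take electrons from NADH and succinate, complex III passes them to cytochrome c, complex IV hands them to oxygen, and complex V, the ATP synthase, uses the proton gradient that complexes I, III and IV build up to make ATP. The subunits have a split origin: a small core is encoded by mitochondrial DNA and all other subunits by nuclear genes, so each complex except II needs mRNAs from both genomes. Smooth muscle, which drives the peristalsis of the ureter, and the urothelium, its stretchable epithelial lining, both use this pathway. The factors NRF1, GABP of the ETS family and YY1 are known to bind promoters of nuclear OXPHOS genes.

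Nuclear RNA was sequenced from ureters of mice at postnatal day 0. The DNp63cKO pool came from 14 mice that carried Pax2-cre/+, DNp63fl/fl, which lets cre delete the ΔNp63 form of Trp63, and R26mTmG/+, a fluorescent reporter. The control pool came from 13 mice whose genotype is labelled wt, so driver and reporter may differ between the pools too. Pax2-cre acts in the nephric duct lineage that forms the urothelium, and not in that lineage alone in the embryo. Each pool gave 1 library, so every difference between libraries below has no replicate check, and genotype and library cannot be told apart. Intervals are 95% intervals that cover counting error only.

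The DNp63cKO library held 5528 nuclei and 9859451 UMIs, and the control library 9062 nuclei and 16063644 UMIs. All 94 genes were detected in both, with 1.31% of UMIs in DNp63cKO and 1.18% in control. Levels are given in CPM, the share of a gene in all UMIs of a group of nuclei, scaled to a common total. Log2 ratios of single genes are of CPM + 5, and those of sums have nothing added. Intervals of single genes leave out the 5, so a ratio of a low gene can lie near or outside its bound. Over all nuclei, Trp63 was at 82.4 CPM in the DNp63cKO library and 151 CPM in the control library. In the basal-like cluster it was at 261 and 341 CPM, but these counts join all exons, and which exons the deletion removes is not given in the sources used here, so they do not check it. Of 17 clusters of nuclei, 7 were urothelium-like, 3 smooth-muscle-like, and 1 each fibroblast-like, endothelium-like, pericyte-like, macrophage-like, neuron-like, glia-like and nephron-like. No member was among the 2000 variable genes that shaped the clusters. Cluster 3, called urothelium-like and superficial-like, had 1025 DNp63cKO and 70 control nuclei. A cluster mostly from 1 library may be that library rather than a cell type. Against all other nuclei, its leading genes held no urothelial marker, but Msln of the mesothelium list and Scnn1b of the collecting duct list. Against the nuclei of other classes 4 of the leading genes were urothelial markers. Urothelial values are therefore given by numbered cluster, and for the class also without cluster 3.

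Among the 4 classes with most nuclei, the 94 genes had their highest summed level in smooth-muscle-like nuclei, of 17650 CPM (DNp63cKO) and 16678 CPM (control). Urothelium-like nuclei followed with 12567 and 10496 CPM, then endothelium-like nuclei with 9231 and 9237 CPM and fibroblast-like nuclei with 6812 and 6448 CPM. The other classes had under 100 nuclei in each library. Of these, macrophage-like nuclei (58 and 31) stood at 13062 and 7230 CPM, glia-like nuclei (38 and 39) at 10483 and 8104 CPM, nephron-like nuclei (22 and 6) at 10167 and 7828 CPM, pericyte-like nuclei at 8126 and 7934 CPM and neuron-like nuclei at 6503 and 6698 CPM. Of these 4 large classes, smooth muscle was the highest for 67 of 94 genes in DNp63cKO, against 19.2% of all genes with 20 or more UMIs. It was the highest for 76 in control, against 20.7%, and for 66 in both, against 12.6%. Urothelium was the highest for 10 genes in both libraries, endothelium for 4 and fibroblasts for 1. The shares over all genes were not counted for these classes, so these counts cannot be called high or low. At least 2-fold higher in smooth muscle than in each of the other 3 classes, in both libraries, were 10 members, against 2.16% of all genes: Cox6c, a small complex IV subunit (2.49-fold over the next class in DNp63cKO and 2.92-fold in control), Ndufa4, Uqcrh of complex III, the complex I membrane arm genes Ndufc1, Ndufb2 and Ndufb6, and Atp5e, Atp5k, Atp5md and Atp5mpl of the ATP synthase.

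**Figure D1:**
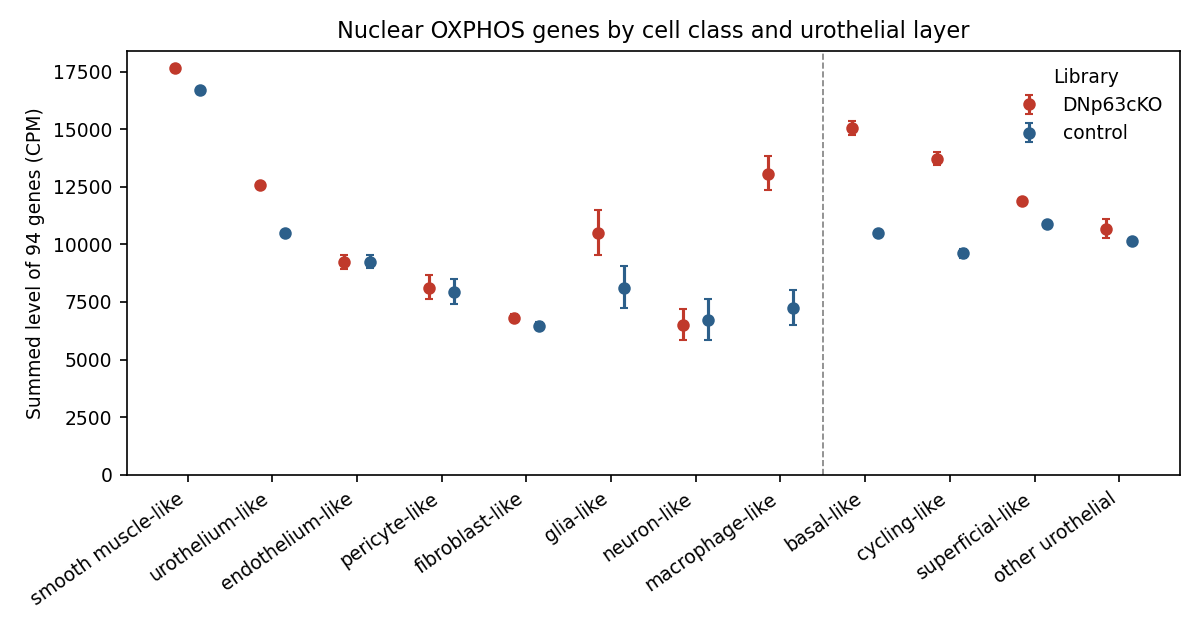
Summed level of the 94 nuclear OXPHOS genes in CPM (y axis, from 0) for each cell class and, right of the dashed line, each urothelial layer (x axis), in the DNp63cKO (red) and control (blue) libraries. Points are pooled sums and bars 95% Poisson intervals; the basal-like points (15052 and 10503 CPM) and the cycling-like points (13705 and 9614 CPM) lie far apart, the endothelium-like points (9231 and 9237 CPM) do not.

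The smooth muscle rank rested on 1 cluster. Cluster 1, led by the contractile genes Acta2, Myl9 and Tagln, had 25485 CPM of the 94 genes in DNp63cKO and 20411 CPM in control. The other smooth-muscle-like clusters had 9953 and 10463 CPM (cluster 10) and 7346 and 7648 CPM (cluster 11). With cluster 1, the urothelium lay below smooth muscle, by a log2 ratio of -0.49 in DNp63cKO and -0.67 in control. Without it, the urothelium lay above, by 0.58 and 0.19. Cluster 1 also carried 87470 and 67108 CPM of ribosomal protein genes, 27188 and 28454 CPM of mitochondrially encoded OXPHOS mRNAs, and haemoglobin at 2256 and 1649 CPM, with Hba-a1 and Hbb-bs among its leading genes. Their part in its level was not tested. Across clusters, the summed level of the 94 genes was ordered like that of the ribosomal protein genes (Spearman's rho 0.86 over 17 clusters in DNp63cKO and 0.85 over 16 in control) and of the mitochondrially encoded genes (0.66 and 0.85). The clusters of a library share its depth, its free RNA and the total that each sum is divided by.

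Between libraries, the 94 genes were higher in DNp63cKO in the basal-like and cycling-like urothelial clusters. Macrophage-like nuclei had a larger log2 ratio of 0.85 (0.68 to 1.03), but few nuclei. In basal-like cluster 9, led by the basal keratins Krt5 and Krt14 (393 and 1288 nuclei), their sum was 15052 CPM in DNp63cKO and 10503 CPM in control, a log2 ratio of 0.52 (0.48 to 0.55). In cycling-like cluster 8, led by the proliferation genes Mki67 and Top2a (350 and 696 nuclei), it was 13705 and 9614 CPM, a log2 ratio of 0.51 (0.47 to 0.55). The ratio in this cluster was lower within each range of depth, given below. Of 89 members with 20 or more UMIs in cluster 9, 78 were higher in DNp63cKO, with a median log2 ratio of 0.48. Over all genes with that many UMIs 49.1% were higher and the median was -0.01. In cluster 8, 82 of 89 were higher, again with a median of 0.48, against 47.7% and -0.02 over all genes.

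Counted by size, 43 of 87 members with 50 or more UMIs in cluster 9 were higher in DNp63cKO by 0.5 or more on the log2 scale, against 9.34% of all genes with as many UMIs. None of the 87 was lower by that much, against 10.9% of all genes. In cluster 8, 41 of 82 members were higher by that much, against 8.26% of all genes, and 1, the complex I assembly factor Ndufaf6, was lower, against 10.6%. Of the 82 members counted in both clusters, 42 passed in cluster 9 and 41 in cluster 8, and 31 passed in both. Over all genes counted in both clusters, 9.04% passed in cluster 9, 8.26% in cluster 8 and 3.62% in both. Both clusters are cut from the same libraries, so the second is no replicate of the first.

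The superficial-like pair of clusters differed little within each cluster. In cluster 3 the sum was 12100 CPM in DNp63cKO and 12512 CPM in control, a log2 ratio of -0.05 (-0.13 to 0.04). In cluster 6 (207 and 1307 nuclei) it was 10788 and 10827 CPM, a log2 ratio of -0.01 (-0.05 to 0.04). Pooled, the same nuclei gave 11888 and 10866 CPM, a log2 ratio of 0.13 (0.11 to 0.15). Most DNp63cKO nuclei lay in cluster 3, the higher of the pair, and most control nuclei in cluster 6. The clusters were made without integration of the libraries, and this pair split mostly by library. A difference between libraries can then lie between the clusters, so the ratios within each do not show that it is absent. Of 89 pooled members with 50 or more UMIs, 6 were higher by 0.5 or more, against 9.63% of all genes, and 0 were lower, against 6.73%. The remaining urothelium-like clusters had log2 ratios of 0.32 (0.24 to 0.39, cluster 5), 0.05 (cluster 7) and 0.20 (cluster 13).

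For the urothelium-like class as a whole, the sum was 12567 CPM in DNp63cKO and 10496 CPM in control, a log2 ratio of 0.26 (0.24 to 0.28), and 0.32 without cluster 3. In nuclei that had UMIs of Y-linked genes but none of Xist it was 0.16. Of the 94 genes 81 were higher, with a median of 0.27 (0.15 over 88 members in those Y-linked nuclei), against 51.8% and 0.01 over all genes. By size, 12 of 91 members were higher by 0.5 or more, against 6.04% of all genes, and 0 were lower, against 4.67%.

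**Figure D2:**
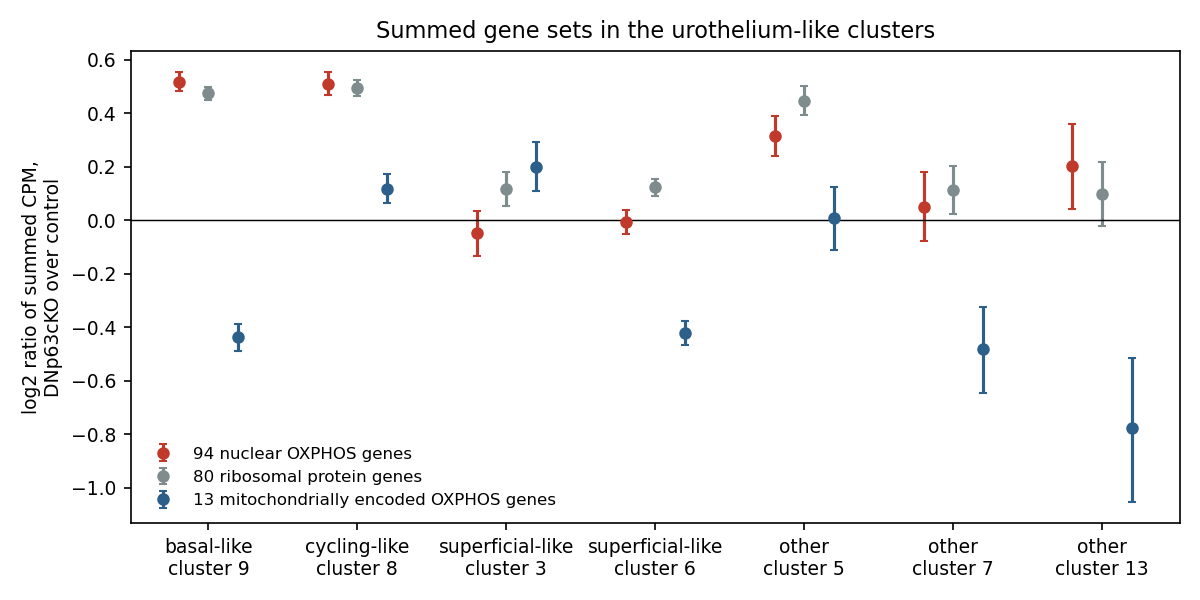
Log2 ratio of summed CPM, DNp63cKO over control (y axis), of the 94 nuclear OXPHOS genes (red), 80 ribosomal protein genes (grey) and 13 mitochondrially encoded OXPHOS genes (blue) in each urothelium-like cluster (x axis), with 95% exact binomial intervals. Nuclear OXPHOS and ribosomal protein genes are high together in clusters 9, 8 and 5, while the mitochondrially encoded genes are at -0.44 in cluster 9 and 0.12 in cluster 8.

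Complex IV, cytochrome c oxidase, had the highest summed ratio of the complexes in both clusters. The others lay between 0.13 (II) and 0.52 (III) in the basal-like and between 0.20 (II) and 0.53 (III) in the cycling-like cluster. Its nuclear subunits summed to 4509 CPM in DNp63cKO and 2666 CPM in control in the basal-like cluster, a log2 ratio of 0.76 (0.69 to 0.82), and to 4046 and 2465 CPM in the cycling-like cluster, a log2 ratio of 0.71. All 11 subunits that most tissues share were higher in both clusters, with medians of 0.74 and 0.75. Cox6c (ENSMUSG00000014313; mm10 chromosome 15, 35925886 to 35938246, minus strand), a small membrane subunit, stood at 417 CPM in the DNp63cKO basal-like cluster and 197 CPM in that of control, a log2 ratio of 1.06 (0.85 to 1.31). Cox6a1 (ENSMUSG00000041697; chromosome 5, 115345642 to 115348981, minus strand), a regulatory subunit, stood at 822 and 412 CPM (0.99; 0.84 to 1.16), and Cox5b, a zinc-binding subunit, at 209 and 105 CPM (0.96; 0.67 to 1.31). Cox4i1, the regulatory subunit that binds ATP, had the lowest ratio but 1 of the 11, at 1031 and 698 CPM (0.56; 0.43 to 0.70), and Cox7b the lowest, at 0.52. Ndufa4, which carries a complex I name but is a complex IV subunit, was at 235 and 126 CPM (0.87). The exception was Cox7a2l, which links complexes III and IV in supercomplexes and is not a standard subunit: it stood at 148 and 147 CPM, a log2 ratio of 0.01 (-0.34 to 0.35), and at 105 CPM in both libraries in cycling-like nuclei.

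In complex V, the ratios differed by part of the enzyme. The subunits of the peripheral stalk and membrane part (Fo) had a median log2 ratio of 0.69 in basal-like nuclei (9 of 9 higher) and 0.81 in cycling-like nuclei (9 of 9). Atp5k (ENSMUSG00000050856; chromosome 5, 108433244 to 108434448, minus strand), the small membrane subunit e that helps ATP synthase form dimers, was at 114 CPM (DNp63cKO) and 49.5 CPM (control) in basal-like nuclei (1.13; 0.75 to 1.65) and at 132 and 61.3 CPM in cycling-like nuclei (1.04). Atp5o with ENSMUSG00000022956, the stalk subunit that sits on the catalytic head, was at 214 and 113 CPM in basal-like nuclei (0.90). The 3 genes of the c ring, the rotor driven by protons, had a median of 0.62 in basal-like but 0.13 in cycling-like nuclei, with Atp5g1 at 108 and 57.1 CPM in basal-like nuclei (0.86).

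The catalytic head (F1) had lower ratios, with medians of 0.33 and 0.26. Atp5b, the catalytic beta subunit, stood at 769 and 650 CPM in basal-like nuclei (0.24; 0.09 to 0.39). Atp5a1, its alpha partner, stood at 595 and 553 CPM (0.11; -0.07 to 0.28). In superficial-like nuclei Atp5a1 was lower in DNp63cKO, at 422 against 566 CPM (-0.42; -0.53 to -0.32). Most of these nuclei lay in cluster 3 in DNp63cKO and in cluster 6 in control, and within each cluster Atp5a1 was lower as well, at 430 and 601 CPM in cluster 3 (-0.48; -0.87 to -0.08) and at 385 and 566 CPM in cluster 6 (-0.55; -0.79 to -0.33). Atp5k lay on the other side of 0 in the pooled superficial-like nuclei, at 95.2 and 51.8 CPM (0.82), and in cluster 6, at 71.1 and 52.3 CPM (0.41; -0.15 to 0.99), where its interval included 0.

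Complex I, the largest complex, showed a split between its arms and its assembly factors. The 20 genes of the membrane arm and other accessory subunits had a median of 0.53 in both basal-like (19 of 20 higher) and cycling-like nuclei (20 of 20). The N module, which takes up electrons from NADH, had 0.37 and 0.42, and the Q module, which reduces ubiquinone, 0.35 and 0.42. Ndufa5, in the arm that faces the matrix, stood at 117 and 59.4 CPM in basal-like nuclei (0.93), and Ndufa12, an accessory subunit near the N module, at 188 and 103 CPM (0.84). Ndufa3, a small membrane arm subunit, was at 108 and 52.0 CPM in cycling-like nuclei (0.99). A pair of core subunits of the N module lay below 0 in basal-like nuclei, Ndufv1, which binds NADH, at 99.8 and 118 CPM (-0.23; -0.67 to 0.17) and Ndufs1, with iron-sulfur clusters, at 74.0 and 88.7 CPM (-0.25; -0.76 to 0.21), with intervals that include 0.

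The 8 complex I assembly factors, which help build the complex and leave it, had medians of -0.02 and 0.15, with 4 and 5 higher. Ndufaf8 was at 32.2 and 14.6 CPM in basal-like nuclei (0.92; 0.25 to 2.00), while Ndufaf3 was at 14.5 and 20.8 CPM (-0.40; -1.74 to 0.53). In cycling-like nuclei Ndufaf6 was at 24.0 and 43.7 CPM (-0.75; -1.80 to 0.00) and Ndufaf5 at 10.5 and 23.9 CPM (-0.90; -2.65 to 0.08). These genes had few UMIs, and their intervals are wide.

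Complex II, succinate dehydrogenase, which is also an enzyme of the TCA cycle and the complex with no mitochondrially encoded subunit, had the lowest summed ratio. Its 8 genes summed to 705 and 645 CPM in basal-like nuclei, a log2 ratio of 0.13 (-0.03 to 0.28), and to 622 and 606 CPM in all urothelium-like nuclei, 0.04 (-0.03 to 0.10). Sdha, the flavoprotein subunit, stood at 294 and 279 CPM in basal-like nuclei (0.08; -0.17 to 0.32). Sdhb, the iron-sulfur subunit, stood at 121 and 91.0 CPM (0.39). The 4 assembly factors had a median of -0.08 there, though Sdhaf2, which inserts the flavin cofactor into Sdha, was at 0.58.

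All 8 complex III genes were higher in basal-like nuclei, with a median of 0.56, and 7 of 8 in cycling-like nuclei, with 0.54. Uqcr11, a small subunit, stood at 220 and 98.8 CPM in cycling-like nuclei (1.12; 0.77 to 1.54) and at 220 and 138 CPM in basal-like nuclei (0.66). Uqcrc1, a large core subunit, stood at 491 and 324 CPM in basal-like nuclei (0.59).

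**Figure D3:**
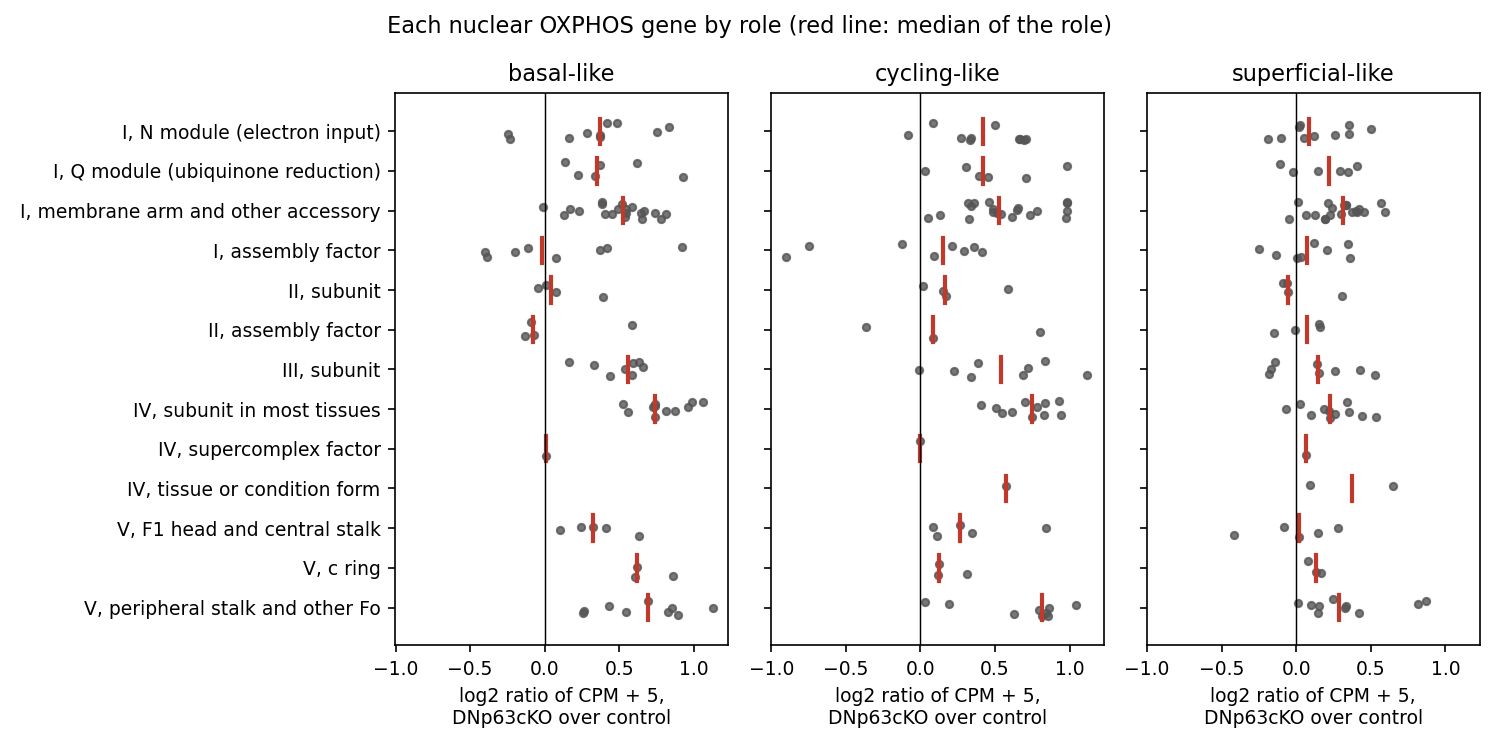
Log2 ratio of CPM + 5, DNp63cKO over control (x axis), of each nuclear OXPHOS gene with 20 or more UMIs (grey points), by its role (y axis), in basal-like, cycling-like and superficial-like urothelial nuclei; red lines are medians of a role. The 11 shared complex IV subunits all lie at 0.52 or above in the basal-like panel, while complex I assembly factors and complex II lie on both sides of 0.

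Other gene lists were read in the same nuclei. The 13 mitochondrially encoded OXPHOS mRNAs, which code for the core subunits that join these nuclear ones, summed to 5870 CPM in DNp63cKO and 7950 CPM in control basal-like nuclei, a log2 ratio of -0.44 (-0.49 to -0.39), with 2 of 13 higher. Examples were mt-Co1, a complex IV core subunit, at 2058 and 2509 CPM (-0.29), and mt-Cytb of complex III at 1009 and 1630 CPM (-0.69). In cycling-like nuclei the sum was 7085 and 6528 CPM (0.12). By depth, the basal-like ratio was 0.07 (-0.09 to 0.23) in nuclei of 500 to under 1000 UMIs, -0.43 from 1000 to under 2000 and -0.44 at 2000 or more. The cycling-like ratio was below 0 in each of these ranges (-0.02, -0.12 and -0.10), though above 0 over all depths. Nuclear and mitochondrial mRNAs of the pathway therefore lay on different sides of 0 in basal-like nuclei with 1000 or more UMIs, and the side of the mitochondrial ones in the cycling-like cluster changed with depth. Nuclei hold no mitochondria, and these mRNAs stem from outside the nucleus.

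The cytosolic ribosomal protein genes, another group of short and widely expressed genes, were as high in DNp63cKO as the nuclear OXPHOS genes. They summed to 29575 and 21266 CPM in basal-like nuclei (0.48; 0.45 to 0.50) and to 25292 and 17950 CPM in cycling-like nuclei (0.49). Glycolysis genes had a median of 0.63 in basal-like nuclei (14 of 16 higher) and 0.44 in cycling-like nuclei (14 of 16), but -0.11 in pooled superficial-like nuclei (5 of 17). Their sum was 3127 CPM (DNp63cKO) and 3756 CPM (control) in those pooled nuclei. Within cluster 3, which had 70 control nuclei, it was 3139 and 3131 CPM. In basal-like nuclei the glycolytic enzyme Eno1 stood at 431 and 156 CPM (1.44; 1.23 to 1.71), Gapdh at 513 and 331 CPM (0.63) and Pkm at 628 and 433 CPM (0.53), while Ldhb, a subunit of lactate dehydrogenase, stood at 357 and 562 CPM (-0.65). TCA cycle genes had medians of 0.17 (12 of 17 higher) and 0.31 (13 of 17). OXPHOS genes that the name rule leaves out, such as assembly factors of complexes III to V, had 0.14 in basal-like nuclei (27 of 37). Regulators of mitochondrial biogenesis had 0.01 (9 of 17), with the coactivator gene Pprc1 at 0.71, Gabpb2 at 0.57, Yy1 at -0.24 and the nuclear receptor gene Esrrg at -0.81.

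The members are short genes, with a median span of 7.57 kb, against 26.2 kb for protein-coding genes with 20 or more UMIs and 3.27 kb for ribosomal protein genes. In nuclei, RNA of long genes is rich in introns. Short genes as a whole were higher in DNp63cKO basal-like nuclei: genes under 5 kb had a median of 0.18, against 0.62 for the 26 members of that span. Between 5 and 20 kb it was 0.03, against 0.46 for 48 members, and between 20 and 100 kb it was -0.04, against 0.16 for 13 members. The members' medians lay above that of all genes of like span in each of these bins, and were lower for longer genes, as were the others. In basal-like nuclei, whose median depth was 1349 UMIs in DNp63cKO and 1351 in control, the log2 ratio of the sum was 0.68 from 500 to under 1000 UMIs, 0.59 from 1000 to under 2000 UMIs and 0.41 at 2000 or more. In cycling-like nuclei, whose median depth was 1488.5 UMIs in DNp63cKO and 968.5 in control, it was 0.28, 0.45 and 0.43. Each of these cycling-like values lay below the ratio over all depths and its interval.

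Markers of other cell types were read beside these differences. In basal-like nuclei, all 19 urothelial markers were detected and summed to 12030 CPM in DNp63cKO and 13126 CPM in control. The smooth muscle list summed to 1855 and 1520 CPM there, the fibroblast list to 1693 and 1306 CPM and haemoglobin to 132 and 174 CPM. The mesothelium list summed to 288 and 97.6 CPM and the macrophage list to 38.6 and 16.0 CPM, and the proliferation gene Mki67 stood at 88.5 and 44.3 CPM. Lymphocyte markers were at 0 in DNp63cKO and 1.41 CPM in control, and erythroid markers at 0 and 1.89 CPM. In cycling-like nuclei the smooth muscle list stood at 1880 and 1407 CPM, the fibroblast list at 1654 and 1243 CPM, the mesothelium list at 291 and 98.8 CPM and the macrophage list at 47.9 and 23.9 CPM. These 4 lists were thus higher in DNp63cKO in both clusters, as were the endothelium, neuron, skeletal muscle and nephron lists. In basal-like nuclei the latter stood at 148 and 114, 38.6 and 28.3, 25.7 and 17.0, and 35.4 and 15.1 CPM. The mesothelium sum rested on few genes. Of its 4 genes, 2 had UMIs in basal-like nuclei of each library, and 1 in DNp63cKO and 2 in control cycling-like nuclei. Its sum was larger in superficial-like DNp63cKO nuclei, at 543 CPM. The pericyte, collecting duct and adipocyte lists were lower in DNp63cKO in both clusters. In basal-like nuclei they stood at 531 and 562, 859 and 1224, and 512 and 830 CPM. The adipocyte sum there rested on 1 gene with UMIs in DNp63cKO and 4 in control. The part of these lists in the result was not tested.

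Short stretches of promoter are shown for a few members, because they carry the letters of factors known to bind OXPHOS promoters. Promoters of 300 bases, 250 before and 50 after the gene start, came from RefSeq (GRCm38.p6). They were matched by symbol to 79 of the 94 members, which gave 83 windows. These members have 78 symbols, because the pair of Atp5o gene IDs shares a symbol and a window, which is counted for ENSMUSG00000022956. Both strands were searched for GCGCATGCG (NRF1), CCGGAAG (ETS) and AAGATGGC (YY1). The ETS and YY1 letters can share AAG, which they do in none of the stretches shown. For each factor, the 4 members with the most UMIs among those with a match were taken. Of these, Atp5pb, with YY1 letters, is not printed, because no GENCODE M21 transcript start was found in its window. Each stretch is 30 bases long, on the strand of the gene, with the matched letters in capitals, and letters that match on the other strand appear as CGCATGCGC or CTTCCGG.
Cox6a1, NRF1 letters, chr5:115349101-115349130, minus strand: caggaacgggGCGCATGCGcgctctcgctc
Uqcrc1, NRF1 letters, chr9:108936668-108936697, plus strand: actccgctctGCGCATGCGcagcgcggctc
Atp5l, NRF1 letters, chr9:44920963-44920992, minus strand: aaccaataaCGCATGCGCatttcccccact
Uqcr11, NRF1 letters, chr10:80406807-80406836, minus strand: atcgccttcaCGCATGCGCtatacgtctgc
Cox6a1, ETS letters, chr5:115348956-115348985, minus strand: ccccatttccgCTTCCGGcgcgccggtgta
Cox8a, ETS letters, chr19:7217603-7217632, minus strand: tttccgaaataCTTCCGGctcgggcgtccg
Cox6b1, ETS letters, chr7:30626124-30626153, minus strand: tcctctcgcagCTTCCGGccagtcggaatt
Atp5l, ETS letters, chr9:44920936-44920965, minus strand: acttcaccgatCTTCCGGaccaacatgaat
Atp5j, YY1 letters, chr16:84835046-84835075, minus strand: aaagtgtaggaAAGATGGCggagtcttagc
Ndufs4, YY1 letters, chr13:114388045-114388074, minus strand: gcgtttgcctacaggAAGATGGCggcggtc
Ndufb8, YY1 letters, chr19:44555393-44555422, minus strand: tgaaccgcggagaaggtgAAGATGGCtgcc

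In Cox6a1 the NRF1 letters start 162 bases before the gene start and the ETS letters 16 bases before it, so its window holds both. The windows of Atp5k, Atp5l and Uqcr11 also hold both. In Uqcr11 the NRF1 letters start 5 bases before the gene start, and in Uqcrc1 they lie 30 bases after it. The YY1 letters lie after the start in Ndufb8 (38 bases) and Ndufs4 (35 bases). Atp5j has a pair of RefSeq starts, and its YY1 letters lie 88 bases before the inner one, inside the annotated gene. NRF1 letters were in 12.05% of members' windows, against 3.02% of windows of all genes with 20 or more UMIs and 4.11% of those of ribosomal protein genes. ETS letters were in 26.5%, against 14.98% and 34.2%, and YY1 letters in 13.3%, against 3.74% and 10.96%. Any of the 3 was in 44.6% of members' windows, in 20.2% of those of all such genes and in 49.3% of those of ribosomal protein genes. Members' windows had a median of 20 CpG, against 18 and 21. Within the members, the median basal-like ratio was 0.48 for the 37 with any of these letters and 0.41 for the 39 without. For NRF1 letters alone it was 0.50 (10 members with them) and 0.47 (66 without). For ETS letters alone the order was reversed, with 0.45 (22 with) and 0.49 (54 without). For YY1 letters alone the median was 0.59 (11 members) and 0.43 (65). In all urothelium-like nuclei the order was the other way for any of the letters, with 0.26 for the 37 with them and 0.31 for the 41 without. A match describes these letters in this window and is neither a site nor a cause. Members with no entry included Ndufs1, Ndufa2, Ndufa4l2, Ndufaf6, Ndufb9, Sdhc, Uqcrb, Uqcrc2, Uqcrq, Cox4i1, Cox4i2, Cox6c, Atp5a1 and Atp5mpl.

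In urothelium-like nuclei pooled, the members with the highest ratios were Atp5k, at 101 (DNp63cKO) and 52.4 CPM (control) (0.89; 0.76 to 1.14), Ndufa3 at 113 and 67.9 CPM (0.69; 0.56 to 0.91), Uqcrb, a small complex III subunit, at 89.2 and 55.0 CPM (0.65), and Ndufa4 at 188 and 121 CPM (0.61). The lowest were Ndufaf5 at 9.44 and 14.2 CPM (-0.41; -1.14 to -0.07), Ndufaf6 at 27.4 and 32.1 CPM (-0.20; -0.55 to 0.09), Atp5a1 at 461 and 527 CPM (-0.19; -0.27 to -0.12) and Ndufs1 at 72.2 and 77.2 CPM (-0.09; -0.29 to 0.10). Ndufa7, the complex I gene with the most UMIs, was at 185 and 151 CPM (0.28). Without cluster 3, Atp5k was at 0.91 and Atp5a1 at -0.08 (-0.18 to 0.02). Atp5k was thus high with and without that cluster, while the interval of Atp5a1 included 0 without it.

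In smooth-muscle-like nuclei the 94 genes differed little between libraries as a group. Their sum had a log2 ratio of 0.08 (0.06 to 0.10), but -0.13 (-0.17 to -0.09) without cluster 1, and the median of 93 members was 0.10 (61 higher), against -0.11 without it. Over all genes, 50.9% were higher and the median was 0.01. By cluster, the log2 ratio was 0.32 (0.30 to 0.34) in cluster 1, where ribosomal protein genes were at 0.38, and -0.07 and -0.06 in clusters 10 and 11. Of 92 members, 4 were higher by 0.5 or more, against 3.84% of all genes, and 1 was lower, against 5.13%. The 4 were Ndufa4l2, a relative of Ndufa4 known to be induced in low oxygen, at 42.5 (DNp63cKO) and 19.7 CPM (control) (0.94; 0.67 to 1.55), Atp5k at 247 and 154 CPM (0.67), Ndufa3 at 169 and 105 CPM (0.65), and Cox4i2, the oxygen-sensitive form of Cox4, at 12.6 and 7.05 CPM (0.55; 0.07 to 1.64). The 1 lower was Ndufv1 at 86.3 and 131 CPM (-0.57; -0.83 to -0.38). Atp5a1 was next, at 500 and 674 CPM (-0.43; -0.53 to -0.33), and was at -0.62 without cluster 1, while Atp5k without it was at 0.34 (-0.08 to 0.82). The other low members were Sdhaf3, an assembly factor of complex II, at 15.4 and 21.7 CPM (-0.39; -1.06 to 0.06) and Ndufa9, a Q module subunit, at 64.9 and 80.6 CPM (-0.29).

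Fibroblast-like nuclei too differed little between libraries. They had a sum of 6812 CPM in DNp63cKO and 6448 CPM in control (0.08; 0.03 to 0.13). Of 81 members, 7 were higher by 0.5 or more, against 6.77% of all genes, and 0 were lower, against 5.82%, so the members' share was near that of all genes. The highest were Ndufs3, a core subunit of the Q module, at 79.99 and 48.3 CPM (0.67; 0.19 to 1.29), Ndufv3 at 70.8 and 43.7 CPM (0.64), Atp5k at 62.5 and 39.1 CPM (0.61) and Atp5e, the small epsilon subunit of the head, at 65.8 and 41.4 CPM (0.61). The lowest were Ndufaf2 at 29.2 and 41.4 CPM (-0.44; -1.22 to 0.21), Uqcrfs1, the Rieske iron-sulfur protein of complex III, at 24.2 and 33.4 CPM (-0.40), and Uqcrc1 at 98.3 and 127 CPM (-0.35; -0.75 to 0.02). The median of 90 members was 0.11 (61 higher, against 51.6% of all genes), but -0.52 when estimated free RNA, which leaks from broken cells, was subtracted. Atp5a1 stood at 214 and 280 CPM (-0.38; -0.64 to -0.13). The ratio of Atp5a1 was below 0 in fibroblast-like, smooth-muscle-like, pooled superficial-like and endothelium-like nuclei, although in the last its interval (-0.70 to 0.02) included 0. In endothelium-like nuclei the sum of all 94 did not differ beyond counting error (0.00; -0.07 to 0.06).

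From basal-like to superficial-like nuclei, the level of the 94 genes followed different courses in the libraries. In control it was 10503 CPM in basal-like and 10866 CPM in superficial-like nuclei, a log2 ratio of superficial over basal of 0.05 (0.03 to 0.07). In DNp63cKO it was 15052 and 11888 CPM, a log2 ratio of -0.34 (-0.37 to -0.31). Among nuclei with 1000 or more UMIs, clustered and named anew, these ratios were 0.25 (control) and -0.047 (DNp63cKO). The basal-like group then held 384 DNp63cKO and 1328 control nuclei, so depth and membership changed together. As a mean over nuclei the control value was -0.075. Of 91 members with 20 or more UMIs, 44 were higher in the superficial-like layer in control, against 35.9% of all genes, and 18 in DNp63cKO, against 43.7%. The median of these members was -0.016 in control and -0.31 in DNp63cKO. The median over all genes was -0.16 in control and -0.08 in DNp63cKO. Mitochondrially encoded mRNAs were higher in the superficial-like layer in both libraries (0.78 in control and 0.95 in DNp63cKO).

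Single members showed where the layers differed. In control, Ndufv3, a complex I subunit with tissue-specific splice forms, was at 112 CPM in superficial-like and 65.6 CPM in basal-like nuclei (0.73), and the same direction was seen in DNp63cKO (145 and 74.0 CPM; 0.92). Cox6a1 was at 594 and 412 CPM in control (0.52) but at -0.44 in DNp63cKO, and Cox4i1 at 972 and 698 CPM (0.48) but at -0.15. Ndufb3, a membrane arm subunit, was at 80.8 and 49.5 CPM (0.65) but at 0.07 in DNp63cKO. Among the lowest in control were the assembly factor Ndufaf2 at 18.5 and 35.8 CPM (-0.80), Sdhc, a membrane anchor of complex II, at 69.8 and 96.2 CPM (-0.44), Ndufaf1, which helps build the membrane arm, at 17.03 and 24.997 CPM (-0.45), and Sdhaf3 at 9.49 and 14.6 CPM (-0.44). Both complex IV genes thus had their higher level in the superficial-like layer of the control library and in the basal-like layer of the DNp63cKO library.

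A few members are forms that most tissues lack, and these were read as a share of the form and its common partner. Ndufa4l2 made up 50% (32.9 to 67.1%) of 36 Ndufa4l2 and Ndufa4 UMIs in DNp63cKO pericyte-like nuclei and 68.2% (45.1 to 86.1%) of 22 in control. In smooth-muscle-like nuclei the shares were 8.25% and 4.46%, and in urothelium-like nuclei 2.57% and 0.452%. Its level in pericyte-like nuclei was 159 and 146 CPM. The pericyte-like nuclei were thus the class where this form was a large share of the pair.

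Cox6b2, known from testis, made up 27.5% (21.4 to 34.2%) of Cox6b2 and Cox6b1 UMIs in DNp63cKO fibroblast-like nuclei and 25.9% (17.97 to 35.2%) in control, at 45.8 and 32.2 CPM. In urothelium-like nuclei the share was 3.46% and 2.76%, and in smooth-muscle-like nuclei 5.23% and 4.37%. Among the 4 large classes, it was the 1 member highest in fibroblasts in both libraries. In small classes it rested on few UMIs. The share was 27.8% (5 of 18 UMIs, 91.3 CPM) in DNp63cKO nephron-like nuclei and 0 of 1 in control. In pericyte-like nuclei it was 15.4% (2 of 13) in each library. Cox7a1, the form of heart and skeletal muscle, had 0 of 713 Cox7a1 and Cox7a2 UMIs in DNp63cKO smooth-muscle-like nuclei, which allows up to 1.05 CPM (3 UMIs), and 6 of 831 in control. Cox4i2 had 115 UMIs in all, and 36 and 25 of them in smooth-muscle-like nuclei.

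**Figure D4:**
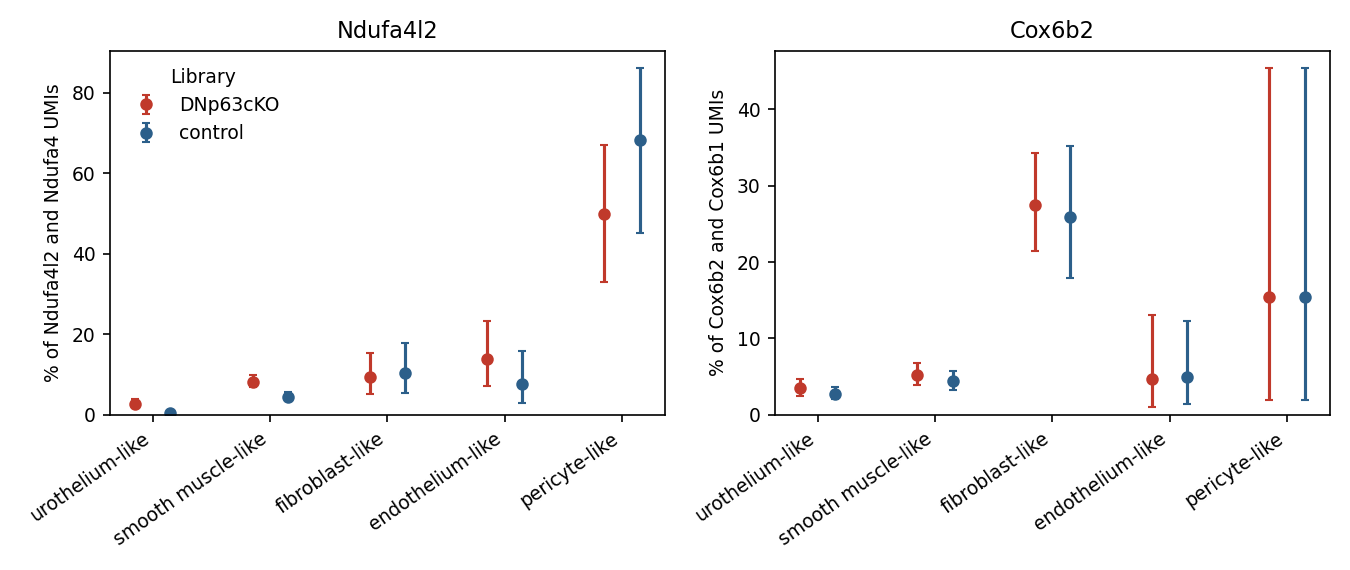
Share of Ndufa4l2 among Ndufa4l2 and Ndufa4 UMIs (left) and of Cox6b2 among Cox6b2 and Cox6b1 UMIs (right), in percent (y axes, from 0), by cell class (x axis), in the DNp63cKO (red) and control (blue) libraries, with 95% Clopper-Pearson intervals. Ndufa4l2 is at 50% and 68.2% in pericyte-like nuclei, and Cox6b2 at 27.5% and 25.9% in fibroblast-like nuclei.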

How the data were processed

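Single-nucleus libraries of a DNp63cKO and a control pool were compared. The authors deposited raw UMI counts for each gene in each nucleus, with no scaling. Per the submitters' processing notes, which give no roles, STAR 2.7.11a, STARsolo, Seurat 4.0.5, R 4.0.5 and the build mm10 were involved. Annotation, intron counting and the treatment of reads shared with pseudogenes are not stated there or in the labels, so members with near-identical copies, and the pair of Atp5o gene IDs, are uncertain. Median depth was 1298 UMIs per nucleus in DNp63cKO and 1124.5 in control, and 58 barcodes occurred in both.

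Nuclei needed 300 genes or more and 5% mitochondrial UMIs or less. Scrublet's automatic threshold marked 2 and 0 nuclei and had not worked, so the top 5% by doublet score (333 and 486) were removed, leaving 5158 and 8403. Counts were scaled to 10000, log-transformed and clustered (2000 variable genes, 30 components, 15 neighbours, Leiden resolution 1.0, no integration; scanpy 1.11.5). Clusters were named from marker lists (3 or more markers at 50 CPM or above and a score above 0.1; layers above 0.4). The naming rule, its thresholds and the second reference for cluster 3 were chosen after seeing the data. UMIs were summed per class or cluster and divided by its total to give CPM, so deeper nuclei weigh more. Gene ratios are log2 of (CPM + 5), DNp63cKO over control; their exact binomial intervals leave out the 5 CPM (scipy 1.17.1, numpy 2.4.6, pandas 2.3.3). With 1 library per group there is no test and no p-value. Any member could be named by role. Full values were due for the member with most UMIs of each complex, the 4 highest and 4 lowest ratios (50 or more UMIs) in urothelium, smooth muscle and fibroblasts and of superficial over basal in control, the forms of complex IV with their partners, and members at least 2-fold above every other large class. Further examples in clusters 8 and 9 were chosen after their values were seen. The members and lists were chosen with earlier results of these data known. Alternatives were other filters, clusterings, scalings, pseudocounts, an estimated free RNA subtraction and left-out clusters. Coordinates are GENCODE M21 (GRCm38) and promoters RefSeq GRCm38.p6. The NRF1 letters were shortened by 1 base after a first search had been seen. Scripts were tested on simulated data.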

Additional observations from a re-analysis of the deposited data

Results flagged for a closer look

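The superficial-like layer lay below the basal-like layer in DNp63cKO, with a log2 ratio of the summed members of -0.34, and slightly above it in control, with 0.049. The sums thus had opposite signs in the libraries, but in control the sign depended on the measure. The median of members was -0.016 in control and -0.31 in DNp63cKO, and the control mean over nuclei was -0.075. This difference between the libraries was not tested.

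The summed members were higher in DNp63cKO in smooth-muscle-like cluster 1, with a log2 ratio of 0.32, and lower in clusters 10 and 11, with -0.072 and -0.058. The clusters of this class moved in opposite directions, and this difference was not tested.

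In basal-like nuclei the summed nuclear members had a log2 ratio of 0.52 and the mitochondrially encoded genes of the same complexes one of -0.44, which was 0.07 in nuclei of 500 to under 1000 UMIs. This difference was not tested.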

How the results depend on the processing

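Values below are log2. Over 10 results and 107 alternatives, 54 values moved by less than the counting interval, 48 by more, and 5 reversed. The basal-like, cycling-like and cluster-based alternatives were chosen after seeing the data. The summed urothelium-like ratio (0.26) was 0.19 in nuclei with 1000 or more UMIs, 0.33 as a mean over nuclei, 0.28 with estimated free RNA subtracted, 0.32 without cluster 3 and 0.16 in nuclei that had UMIs of Y-linked genes but none of Xist. The median (0.27) was 0.22, 0.32, 0.29 (pseudocount of 1 CPM), 0.31 (without cluster 3) and 0.15 (Y-linked). In basal-like nuclei the median (0.48; 393 DNp63cKO and 1288 control nuclei) was 0.38 with no limit on mitochondrial UMIs (340 and 1058). It was 0.42 with members, mitochondrial and ribosomal protein genes left out of the clustering (345 and 838), and 0.47 at resolution 0.5 (551 and 2347). These alternatives clustered the nuclei and named the layers anew, as did those of 1000 or more UMIs and of no doublet removal. The basal-like nuclei were therefore not the same. With the main clusters the median was 0.60 with free RNA subtracted, 0.53 for members with 100 or more UMIs and 0.56 in Y-linked nuclei. The Y-linked value rested on 63 members and on 67 and 118 nuclei. In cycling-like nuclei (0.48; 89 members, 350 and 696 nuclei) it was 0.42 at 1000 or more UMIs (217 and 289 nuclei), 0.53 as a mean and 0.60 with free RNA subtracted. In Y-linked nuclei it was 0.58, but over 42 members and in 45 and 109 nuclei. In smooth muscle the median (0.10) was 0.074 at 1000 or more UMIs, 0.053 with no mitochondrial limit, 0.13 with no doublet removal, 0.013 as a mean, 0.15 with free RNA subtracted and -0.11 without cluster 1, a reversal. In fibroblasts (0.11) it was 0.059 at 1000 or more UMIs and reversed to -0.52 with free RNA subtracted; the cause was not tested.

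Urothelium over smooth muscle (-0.49 in DNp63cKO, -0.67 in control) was -0.59 and -0.71 at 1000 or more UMIs, -0.47 and -0.62 with no doublet removal, -0.55 and -0.73 with CPM computed without mitochondrially encoded, haemoglobin and ribosomal protein genes, -0.24 and -0.59 as a mean, -0.76 and -0.89 with free RNA subtracted, and reversed to 0.58 and 0.19 without cluster 1; with no mitochondrial limit the control value was -0.70. Superficial over basal in DNp63cKO (-0.34) was -0.047 at 1000 or more UMIs, -0.051 at resolution 0.5, -0.24 with no mitochondrial limit, -0.22 with no doublet removal, -0.50 as a mean, -0.56 with free RNA subtracted and -0.48 without cluster 3. In control (0.05) it was 0.25, 0.16 (resolution 0.5), 0.17, 0.31 and -0.075 as a mean, a reversal, and 0.0016 with those genes left out of the clustering; the cause was not tested. No paired analysis was possible because each group has 1 library. Subtracted free RNA was estimated at 39.4% of UMIs in DNp63cKO and 27.5% in control. Depth limits members with few UMIs, such as assembly factors and tissue forms, whose intervals in a cluster are wide.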
